A study of Mus musculus with 18 samples.

Results

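Kupffer cell identity genes are transcripts by which the resident macrophages of the liver are recognised. The 10 examined here, Clec4f, Timd4, Vsig4, Marco, Cd5l, Adgre1, Cd163, Folr2, Csf1r and Id3, were taken by name from a table of 54532 annotated genes and were described in the livers of normal control mice (NC), of mice on a high-fat diet (HFD) and of HFD mice given SZ-A, with 6 mice in each group. Liver RNA of 18 male C57BL/6J mice was sequenced after poly-A selection. NC mice ate a standard chow, and the HFD and SZ-A groups ate an HFD for 14 weeks and stayed on it during the treatment. The mice were 6 weeks old when housed, and 1 week of acclimatisation came before the diets. SZ-A is the alkaloid fraction of Ramulus Mori, the mulberry twig, and was given over the last weeks of HFD feeding, for which the methods state 6 weeks and the deposited design 8, while NC and HFD mice received no SZ-A. The dose and route of the sequenced mice were not given in the sources used here.

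Kupffer cells line the liver sinusoids, where they take up bacteria, complement-coated particles, dying cells and modified lipoproteins from portal blood. They are seeded before birth and are kept in place by signals of neighbouring endothelial, stellate and parenchymal cells, among them CSF1, Notch ligands and ligands of the TGF-beta family. In steatohepatitis, resident cells can be lost and replaced by macrophages derived from monocytes, which take on some Kupffer cell transcripts early and others, Timd4 among them, late. Adgre1, Csf1r, Cd163 and Marco are also expressed by other macrophages, and Id3 by many cell types. Whole liver RNA does not separate fewer cells of a type from less RNA per cell.

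The values are FPKM, fragments per kilobase normalised to library size, and work back to 17163191 to 20493907 whole fragments on genes per mouse. All 10 genes averaged 1 FPKM or more and were among the 10216 genes tested. Each of the 10 was detected in every mouse, with at least 19 fragments, which does not by itself show that the transcripts came from Kupffer cells. Hepatocyte transcripts dominated, with a summed FPKM of 25432 or more over 10 markers in every mouse. One deposited diet label contradicted its title: NC6 is titled as a chow mouse and labelled as fed HFD, and it was kept in NC. Among the genes that separated HFD from the other 5 NC mice, NC6 lay nearer to those NC mice for 67.1%, the lowest share of the 6 NC mice, for which it ran up to 88.6%. Comparisons with NC were therefore also made without NC6.

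By length-scaled level, Cd5l came first with a mean of 67.1 FPKM over the 18 mice, followed by Clec4f (51.2), Id3 (24.7), Vsig4 (21.9), Csf1r (13.9), Marco (9.71), Adgre1 (8.10), Cd163 (5.31), Timd4 (3.001) and Folr2 (1.85). The order was the same in HFD mice alone. In NC mice Cd163 (mean 6.33 FPKM) and Adgre1 (6.19) stood above Marco (5.81), whose mean of 15.8 in HFD mice includes HFD5 at 42.0, and in SZ-A mice Vsig4 (22.7) stood above Id3 (22.1). The ranges over mice of each gene and the next in the pooled order overlapped.

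The regulatory sequence is shown for 4 members whose levels followed each other from mouse to mouse, Clec4f, Vsig4, Cd5l and Folr2. Adgre1 and Csf1r, which also followed Vsig4 and Cd5l, are not shown. Each line gives the 250 bases before the start of the RefSeq gene model, 5′ to 3′ in the direction of transcription, from the RefSeq promoter table on GRCm38.p6. The deposited table places the start of Clec4f further upstream, so that 71 bases of its window lie inside the gene as deposited, and 4 bases do so for Folr2. Capitals mark GAGGAA, the core letters of a PU.1-type site, and TGCTGA, a MAF-type motif, read on either strand, so that TTCCTC and TCAGCA are the same motifs on the other strand. PU.1 (encoded by Spi1) and the MAF factors are transcription factors of macrophages. The windows are chr6:83656117-83656366 on the minus strand for Clec4f, chrX:96293439-96293688 on the minus strand for Vsig4, chr3:87357631-87357880 on the plus strand for Cd5l and chr7:101857191-101857440 on the minus strand for the longer Folr2 model.
Clec4f: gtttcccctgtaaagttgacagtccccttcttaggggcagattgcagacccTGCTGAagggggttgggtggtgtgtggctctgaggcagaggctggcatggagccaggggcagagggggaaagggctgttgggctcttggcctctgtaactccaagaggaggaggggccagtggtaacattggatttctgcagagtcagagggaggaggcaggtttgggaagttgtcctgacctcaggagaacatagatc
Vsig4: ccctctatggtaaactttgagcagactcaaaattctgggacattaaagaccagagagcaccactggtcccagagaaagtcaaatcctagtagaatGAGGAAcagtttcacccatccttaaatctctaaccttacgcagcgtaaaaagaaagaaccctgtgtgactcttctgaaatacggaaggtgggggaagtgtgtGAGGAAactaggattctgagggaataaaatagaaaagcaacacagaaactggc
Cd5l: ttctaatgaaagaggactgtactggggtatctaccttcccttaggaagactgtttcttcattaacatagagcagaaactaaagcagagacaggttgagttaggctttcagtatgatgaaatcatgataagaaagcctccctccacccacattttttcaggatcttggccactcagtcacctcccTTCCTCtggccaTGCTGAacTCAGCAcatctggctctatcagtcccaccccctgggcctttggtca
Folr2: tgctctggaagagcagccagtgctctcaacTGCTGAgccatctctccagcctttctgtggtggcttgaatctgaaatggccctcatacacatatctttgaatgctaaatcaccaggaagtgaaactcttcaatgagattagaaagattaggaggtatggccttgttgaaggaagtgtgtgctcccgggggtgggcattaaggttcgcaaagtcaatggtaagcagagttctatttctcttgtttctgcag

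In these windows the PU.1-type letters stand in Vsig4 and Cd5l, and the MAF-type letters in Clec4f, Cd5l and Folr2. Searched here were 9 promoters of 300 bases (250 before to 50 after the start) of 8 members, with none for Adgre1 or Csf1r. GAGGAA occurred in 4 of these 9 and in 28.3% of all 32851 promoters, and TGCTGA in 6 of 9 and in 19.5% of all. Folr2 has 2 of the 9 entries, both with TGCTGA. For its shorter model and for Id3, which holds GAGGAA, all 250 bases before the start lie inside the gene as deposited. AGGTCA, a nuclear receptor-type motif, occurred in 2 of 9 (16.3% of all), and CANNTG, the E-box whose binding factors Id proteins restrain, in 6 of 9 (72.3% of all). These matches describe letters only.

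In the HFD group, Cd5l and Adgre1 were higher than in NC, by 1.71-fold and 1.84-fold. They were the 2 of 10 members called at an adjusted p below 0.05 together with a change of more than 1.2-fold (limma, Benjamini-Hochberg over all 10216 tested genes), where 10.7% of all tested genes were called higher and 9.49% lower. No member was called lower. Of 23 alternative settings, Cd5l was called in 12 and Adgre1 in 13, and with each mouse left out in turn in 3 and 4 of 12. The median log2 fold change was 0.38 over the 10 members and -0.03 over all tested genes. Between SZ-A and HFD mice 0 of 10 members were called in limma, where 0.0783% of all tested genes were called higher and 0.0685% lower. At an unadjusted p under 0.05 and the same fold limit 1 member, Adgre1, was lower, against 4.59% of all genes lower and 4.43% higher, and voom called 0 of 10. The median log2 fold change was -0.18 over the members and 0.03 over all genes. Between SZ-A and NC mice 0 of 10 were called in limma, where 5.31% of all tested genes were called higher and 4.3% lower. At an unadjusted p under 0.05 and the fold limit 2 members, Clec4f and Cd5l, were higher, against 11.6% of all genes higher and 8.6% lower, and voom called 1, Clec4f. The median was 0.32 over the members and -0.01 over all genes. The 3 comparisons share their groups of mice and are not independent. For none of the 10 members were the values of any 2 groups separated, where HFD against NC separated 5.48% of tested genes upward and 4.97% downward, SZ-A against HFD 0.793% and 0.489%, and SZ-A against NC 2.83% and 2.67%. When FPKM were brought to the same sum in every mouse, the share of higher genes among all called genes moved from 53.0% to 86.3% in HFD against NC and from 53.3% to 4.63% in SZ-A against HFD. Cd5l and Adgre1 were called higher in HFD against NC on both scales.

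**Figure D1:**
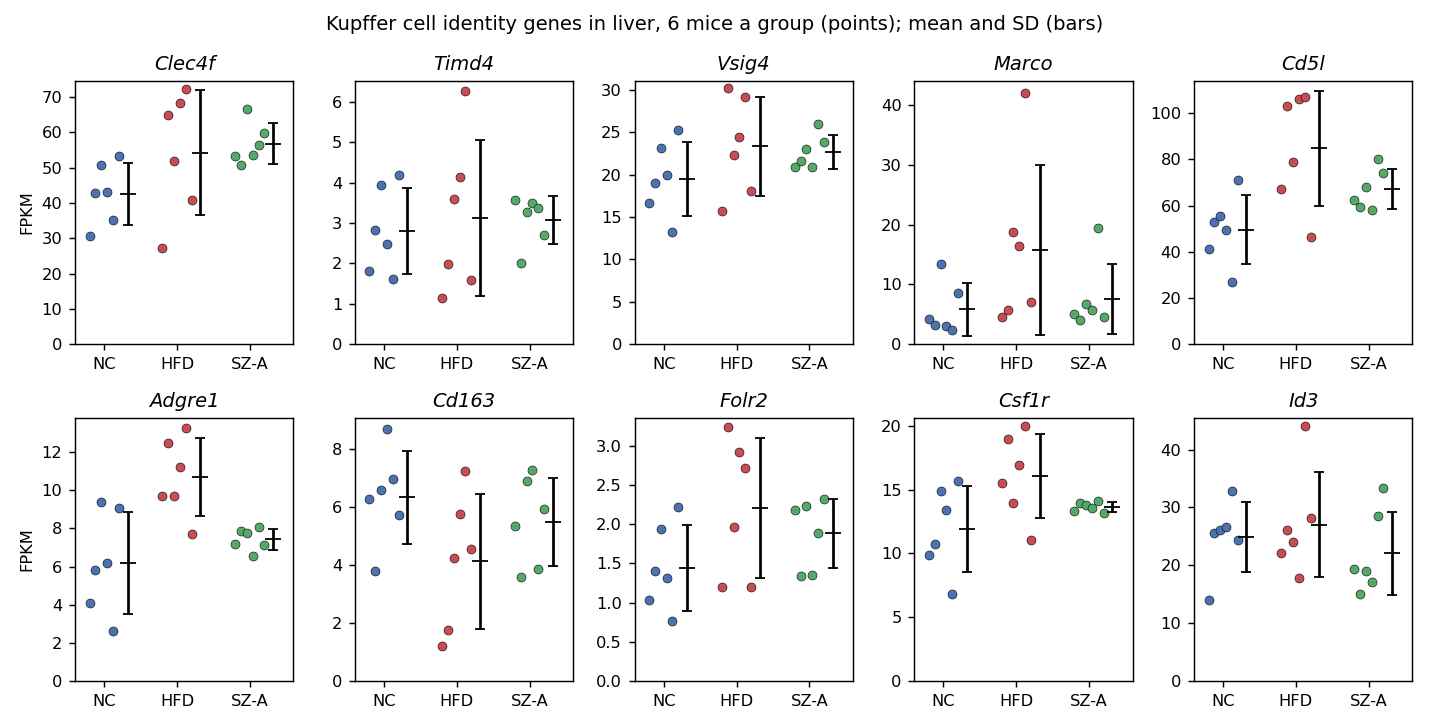
FPKM of the 10 Kupffer cell identity genes in liver, 1 panel a gene, with 1 point a mouse in the NC, HFD and SZ-A groups and bars for the mean and SD of 6 mice. Adgre1 and Cd5l sat higher in HFD than in NC mice, every panel shows overlapping groups, and the SZ-A points lay closer together than the HFD points.

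Clec4f, Timd4 and Vsig4 encode surface receptors that mark resident Kupffer cells most closely. Clec4f, a C-type lectin that in the mouse is nearly restricted to these cells (ENSMUSG00000014542, chr6:83644542-83656187 on the minus strand, GRCm38), had a lowest, median and highest FPKM of 30.6, 42.9 and 53.4 in NC mice, 27.2, 58.4 and 72.3 in HFD mice and 50.7, 55.1 and 66.7 in SZ-A mice. The HFD mice reached both below and above all NC mice, whereas the SZ-A mice began near the top of the NC range. The log2 fold change was 0.30 in HFD against NC (95% interval -0.19 to 0.79, adjusted p = 0.380), 0.14 in SZ-A against HFD (-0.31 to 0.58, 0.803) and 0.43 in SZ-A against NC (0.15 to 0.72, 0.0524). All 6 SZ-A mice exceeded the NC mean of 42.6 ± 8.75 FPKM (SD, n = 6). The last difference did not pass the threshold over the 12 mice of both groups. Of 23 alternative settings it passed in 7, which were voom (adjusted p = 0.0439), sample weights, median-ratio scaling, a mean FPKM of at least 5, the replicate block, and the fits without NC6 (0.50, adjusted p = 0.0277) or NC3 (0.49, adjusted p = 0.0448), and its adjusted p ranged from 0.0277 to 0.164.

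Timd4, the phosphatidylserine receptor TIM-4 through which Kupffer cells bind dying cells (ENSMUSG00000055546, chr11:46810800-46844332 on the plus strand), had a lowest, median and highest FPKM of 1.62, 2.65 and 4.19 in NC, 1.15, 2.80 and 6.26 in HFD and 2.02, 3.32 and 3.56 in SZ-A mice. HFD mice held both the lowest and the highest level of the 18. Its log2 fold change was 0.01 in HFD against NC (-0.80 to 0.82, adjusted p = 0.991), 0.17 in SZ-A against HFD (-0.57 to 0.92, 0.855) and 0.18 in SZ-A against NC (-0.31 to 0.68, 0.670). These intervals allow changes of more than 1.2-fold in either direction. Timd4 rested on 53 to 252 fragments per mouse.

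Vsig4, the complement receptor CRIg that captures particles coated with C3 fragments (ENSMUSG00000044206, chrX:96247203-96293438 on the minus strand), measured 13.2, 19.5 and 25.2 FPKM at the lowest, median and highest in NC, 15.8, 23.4 and 30.2 in HFD and 20.9, 22.3 and 26.0 in SZ-A mice. The SZ-A mice lay inside the HFD range. The log2 fold change was 0.25 in HFD against NC (-0.15 to 0.65, adjusted p = 0.366), -0.00 in SZ-A against HFD (-0.32 to 0.31, 0.990) and 0.24 in SZ-A against NC (-0.05 to 0.54, 0.283). All 6 SZ-A mice lay above the NC mean for Vsig4 as they did for Clec4f.

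Marco and Cd163 are scavenger receptors. Marco, a class A scavenger receptor for bacteria and modified lipoproteins (ENSMUSG00000026390, chr1:120474538-120505024 on the minus strand), had a lowest, median and highest FPKM of 2.41, 3.72 and 13.4 in NC mice, 4.55, 11.8 and 42.0 in HFD mice and 4.06, 5.35 and 19.5 in SZ-A mice. NC3, HFD5 and SZ-A5 were the highest of their groups, and the groups overlapped. The log2 fold change was 1.27 in HFD against NC (0.08 to 2.46, adjusted p = 0.120), -0.84 in SZ-A against HFD (-1.99 to 0.31, 0.490) and 0.42 in SZ-A against NC (-0.55 to 1.40, 0.611). The change with HFD had the largest point estimate of the 10 members and was not called.

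Cd163, the receptor that clears haemoglobin bound to haptoglobin (ENSMUSG00000008845, chr6:124304656-124330527 on the plus strand), had a lowest, median and highest FPKM of 3.79, 6.42 and 8.70 in NC, 1.19, 4.40 and 7.24 in HFD and 3.58, 5.64 and 7.26 in SZ-A mice. HFD1 and HFD2, at 1.19 and 1.75 FPKM, were below every NC and SZ-A mouse, and the other 4 HFD mice fell within the NC range. Cd163 was the single member with a negative estimate in HFD against NC, at -0.81 (-1.63 to 0.01, adjusted p = 0.149). In SZ-A against HFD it was 0.60 (-0.25 to 1.44, 0.505), and in SZ-A against NC -0.21 (-0.67 to 0.24, 0.575).

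Cd5l, the secreted glycoprotein AIM that protects macrophages from apoptosis and enters fat-laden cells (ENSMUSG00000015854, chr3:87357881-87371073 on the plus strand), had a lowest, median and highest FPKM of 26.7, 51.1 and 71.3 in NC, 46.4, 91.0 and 107 in HFD and 58.3, 65.2 and 80.1 in SZ-A mice. Cd5l rose in HFD against NC by 0.78 on the log2 scale (SE 0.25, adjusted p = 0.0395), with 5 of 6 HFD mice above the NC mean and the groups overlapping in HFD6 and HFD1. The call was lost without any 1 of NC1 to NC5 or HFD2 to HFD5, with the replicate block and with no filter on low genes, and the estimate ran from 0.61 to 0.97 with an adjusted p of 0.0120 to 0.112 over 23 alternatives. Without NC6, the mouse with the contradicting label, it was 0.89 (adjusted p = 0.0226). Against HFD, SZ-A mice stood at -0.29 (-0.70 to 0.13, adjusted p = 0.514), and all 6 lay below the HFD mean of 84.8 ± 24.99 FPKM (SD, n = 6), which the test did not separate from the spread between mice. Against NC the estimate was 0.49 (0.08 to 0.90, adjusted p = 0.122), and of 23 alternatives it passed in 1, without NC6 (0.61, adjusted p = 0.0478).

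Adgre1 and Csf1r are carried by macrophages in general. Adgre1, the adhesion receptor F4/80 (ENSMUSG00000004730, chr17:57358691-57483527 on the plus strand), measured 4.09, 5.79, 9.40, 6.16, 2.61 and 9.08 FPKM in NC1 to NC6, 9.68, 12.5, 9.72, 11.2, 13.3 and 7.70 in HFD1 to HFD6 and 7.19, 7.86, 7.74, 6.57, 8.06 and 7.15 in SZ-A1 to SZ-A6. Of the HFD mice, HFD6 alone fell below NC3 and NC6, and the SZ-A mice formed a narrow band that reached above HFD6 with SZ-A2, SZ-A3 and SZ-A5. Adgre1 rose in HFD against NC by 0.88 on the log2 scale (SE 0.27, adjusted p = 0.0339), and the estimate was 1.02 without NC6 (adjusted p = 0.0180). The call was lost without any 1 of NC1, NC2, NC4 or HFD1 to HFD5, with the replicate block and with no filter on low genes, where over 23 alternatives the estimate ran from 0.63 to 1.07 and the adjusted p from 0.0103 to 0.1003. In SZ-A against HFD it stood at -0.50 (-0.75 to -0.24, adjusted p = 0.0977), with 6 of 6 SZ-A mice below the HFD mean of 10.7 ± 2.06 FPKM (SD, n = 6), and was not called. Of 23 alternatives it passed in 3, without HFD6 (-0.59, adjusted p = 0.0473), on the common-sum scale (-0.68, 0.0274) and with sample weights (-0.50, 0.0342). In SZ-A against NC the estimate was 0.38 (-0.16 to 0.93, adjusted p = 0.374).

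Csf1r, the receptor for CSF1 and IL-34 on which macrophage survival depends (ENSMUSG00000024621), had a lowest, median and highest FPKM of 6.80, 12.1 and 15.6 in NC, 11.1, 16.3 and 19.97 in HFD and 13.1, 13.6 and 14.1 in SZ-A mice. The 6 SZ-A mice formed a narrow band inside the HFD range. The log2 fold change was 0.46 in HFD against NC (0.03 to 0.89, adjusted p = 0.118), -0.21 in SZ-A against HFD (-0.47 to 0.05, 0.446) and 0.25 in SZ-A against NC (-0.11 to 0.61, 0.379). The common-sum scale moved the median of all genes in HFD against NC from -0.03 to 0.15, and Csf1r passed the threshold there (0.65, adjusted p = 0.0493).

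Folr2, the folate receptor beta of resident tissue macrophages (ENSMUSG00000032725, chr7:101839988-101857194 on the minus strand), was the member with the lowest level and rested on 19 to 115 fragments per mouse. Its lowest, median and highest FPKM were 0.759, 1.36 and 2.23 in NC, 1.19, 2.34 and 3.24 in HFD and 1.34, 2.03 and 2.32 in SZ-A mice. Of the HFD mice, 3 lay within the NC range and 3 above every NC mouse. The log2 fold change was 0.56 in HFD against NC (-0.08 to 1.195, adjusted p = 0.201), -0.15 in SZ-A against HFD (-0.71 to 0.41, 0.832) and 0.41 in SZ-A against NC (-0.10 to 0.92, 0.301).

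Id3, an inhibitor of basic helix-loop-helix factors that Kupffer cell differentiation requires (ENSMUSG00000007872, chr4:136143497-136145755 on the plus strand), measured 14.1, 25.9 and 32.9 FPKM at the lowest, median and highest in NC, 17.8, 25.02 and 44.0 in HFD and 15.0, 19.2 and 33.3 in SZ-A mice. The 3 groups lay over each other. Its log2 fold change was 0.10 in HFD against NC (-0.37 to 0.57, adjusted p = 0.774), -0.29 in SZ-A against HFD (-0.79 to 0.20, 0.590) and -0.19 in SZ-A against NC (-0.67 to 0.29, 0.643).

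**Figure D2:**
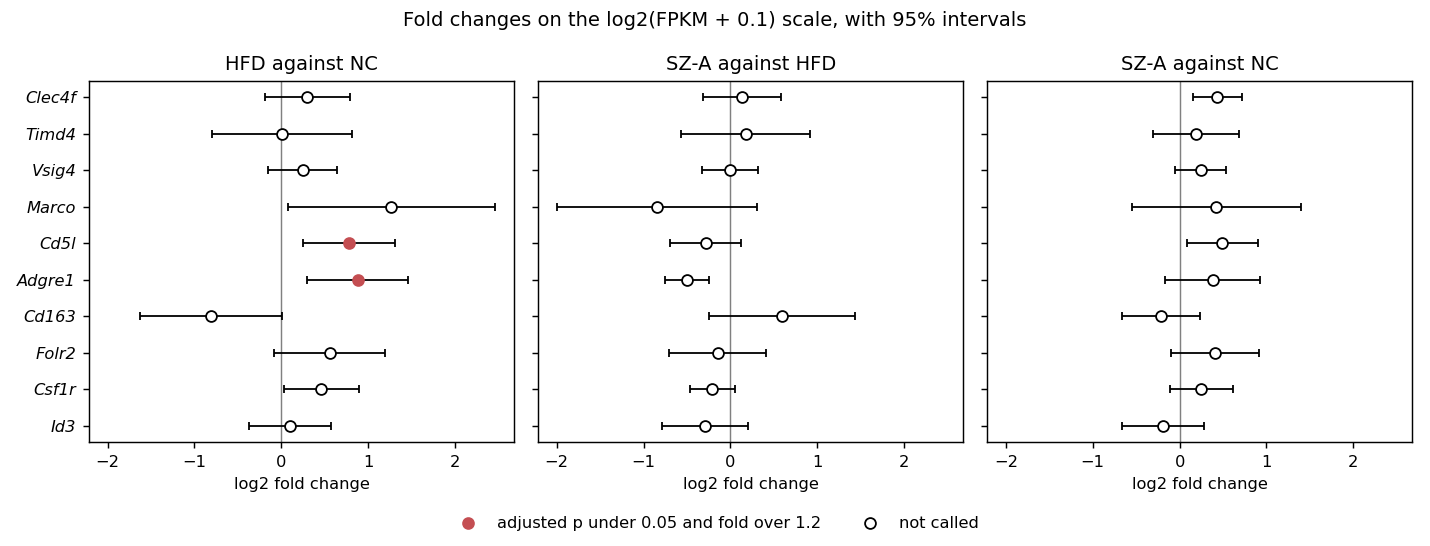
Log2 fold changes of the 10 members on the log2(FPKM + 0.1) scale with 95% intervals, 1 panel for each comparison; filled points passed the adjusted p of 0.05 and the 1.2-fold limit. Only Cd5l (0.78) and Adgre1 (0.88) in HFD against NC are filled, and the widest interval is that of Marco in HFD against NC (0.08 to 2.46).

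Ratios between members within a mouse are free of the scaling of its library. Both pairs of genes were chosen with earlier results of these data known. Their p-values and the adjustment over 6 ratio tests do not take that choice into account. Adgre1 was also the 1 member at an unadjusted p under 0.05 in SZ-A against HFD. The ratio of Clec4f to Adgre1 sets a Kupffer cell transcript against a general macrophage transcript. Its lowest, median and highest log2 values were 2.42, 2.82 and 3.70 for NC mice, 1.48, 2.40 and 2.59 for HFD mice and 2.67, 2.94 and 3.09 for SZ-A mice. The HFD mice held the lower values, and no SZ-A mouse reached down to the HFD mice. The ratio was lower in HFD than in NC by a difference of -0.58 (exact permutation test over mice, two-sided, p = 0.0152, adjusted p = 0.0455 over 6 ratio tests), with 6 of 6 HFD mice below the NC mean. It was higher in SZ-A than in HFD by 0.64 (exact permutation p = 0.00216, the smallest that 6 against 6 mice can give, adjusted p = 0.0130), with 6 of 6 SZ-A mice above the HFD mean. SZ-A and NC differed by 0.05 (exact permutation p = 0.833, adjusted p = 0.868). These comparisons share mice, so the HFD values enter both of the first 2. The call of HFD against NC was lost when any 1 of 9 mice was left out, among them HFD1 (-0.42, exact permutation adjusted p = 0.0974) and NC5 (-0.42, 0.0909), the mice farthest from their groups, and stood without NC6 (-0.65, 0.0390). The call of SZ-A against HFD stood with each of the 12 mice left out (0.48 to 0.70).

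The ratio of Timd4 to Clec4f sets a transcript that newly arrived macrophages acquire late against one they acquire early. On the log2 scale NC mice ran from -4.36 to -3.64, SZ-A mice from -4.58 to -3.86 and HFD mice, the most spread, from -4.97 to -3.51. The differences were -0.29 in HFD against NC (exact permutation p = 0.268, adjusted p = 0.403), 0.04 in SZ-A against HFD (0.868 for both) and -0.25 in SZ-A against NC (exact permutation p = 0.158, adjusted p = 0.316). None passed the threshold.

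**Figure D3:**
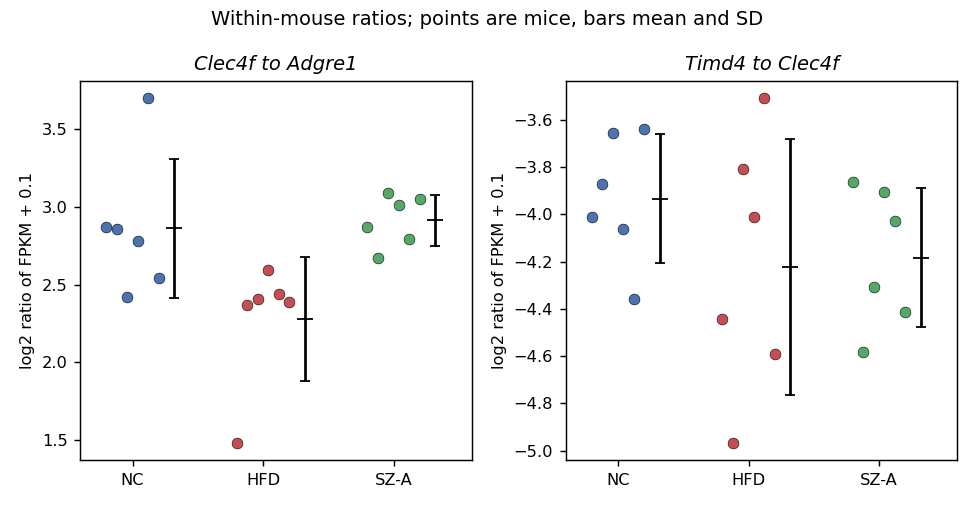
Log2 ratios of FPKM + 0.1 within a mouse, Clec4f to Adgre1 on the left and Timd4 to Clec4f on the right, with 1 point a mouse and bars for the mean and SD of 6. On the left the SZ-A mice (2.67 to 3.09) lie above every HFD mouse (1.48 to 2.59), and HFD1 and NC5 stand apart from their groups; on the right the 3 groups overlap.

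Beside these 10, further transcripts of macrophages, their niche and the other cells of the liver were counted from lists written with earlier results of these data known. In the counts of these lists, rose and fell mean called higher and lower. Over all tested genes 10.7% were called higher and 9.49% lower in HFD against NC. The shares were 0.0783% and 0.0685% in SZ-A against HFD, and 5.31% and 4.3% in SZ-A against NC. Of 15 further Kupffer cell genes, 9 rose and 0 fell in HFD against NC, with a median log2 fold change of 0.50. The estimate was below 0 for 3 of the 15, among them Fcna (-0.36, adjusted p = 0.283) and Clec1b (-0.26, adjusted p = 0.0955), neither called. Among the 9, Hmox1, the heme-degrading oxygenase, rose by 1.03 (SE 0.11, adjusted p = 8.00e-05), Ctsc, the protease cathepsin C, by 0.99 (SE 0.14, adjusted p = 0.000564), and C1qb, a chain of complement C1q, by 0.72 (SE 0.13, adjusted p = 0.00194). With SZ-A against HFD 0 of the 15 were called in limma and in voom (3 at an unadjusted p under 0.05), with a median of -0.16. The values with the smallest p in that comparison were -0.35 for Axl, a receptor tyrosine kinase for the clearance of dying cells (adjusted p = 0.171), -0.39 for Ctsc (0.204) and 0.58 for Fcna, the lectin ficolin A (0.272). In SZ-A against NC 6 of the 15 rose and 1, Cd207, fell (-0.98, adjusted p = 0.00406, named after its value was seen), with a median of 0.37. Of these 7 calls, those of Axl, Hmox1 and Il18bp were lost when some single mouse was left out.

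Of the transcription factors of Kupffer cells, 7 of 10 listed were tested, since Spic, Tfec and Zeb2 were under a mean of 1 FPKM. Spi1, which encodes PU.1, was the 1 that rose in HFD against NC (1.02, SE 0.14, adjusted p = 0.000444), and the median of the 7 was 0.21. Of all tested genes 10.7% were called higher in that comparison. SZ-A against HFD gave calls for 0 of 7 in limma and in voom (1 at an unadjusted p under 0.05), and Spi1 stood at -0.50 (adjusted p = 0.0999), Id1, a relative of Id3, at -0.31 (0.398) and Irf8 at -0.24 (0.419), with a median of -0.04. Against NC, SZ-A mice had higher Spi1 (0.52, adjusted p = 0.0213) and lower Id1 (-0.61, adjusted p = 0.0258). The call of Spi1 was lost without SZ-A3, and that of Id1 without NC3, NC4 or SZ-A6.

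The niche list holds growth factors and receptors that maintain Kupffer cells. In HFD against NC 5 of 12 rose and 0 fell, with a median of 0.46. Estimates below 0, not called, were those of 4 genes: Bmp10 (-0.19), Rbpj (-0.13), the Notch ligand Dll4 (-0.06) and Smad4 (-0.05). Csf1, the ligand of Csf1r, rose by 0.68 (SE 0.13, adjusted p = 0.00326), Gdf2, which encodes BMP9, by 0.71 (SE 0.15, adjusted p = 0.00483) and its receptor Acvrl1 by 0.53 (SE 0.11, adjusted p = 0.00504). For SZ-A against HFD 0 of 12 were called in limma and in voom (4 at an unadjusted p under 0.05), and the median was -0.23. Eng, a co-receptor of BMP9, stood at -0.24 (adjusted p = 0.1004), Acvrl1 at -0.41 (0.165) and Gdf2 at -0.28 (0.255). Csf1 was the 1 member of the list called in SZ-A against NC (0.46, adjusted p = 0.0471), and stayed called in 3 of the 12 fits with a mouse left out. Of all tested genes 5.31% were called higher in that comparison.

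Markers of leukocytes and macrophages in general, Kupffer cells included, moved in HFD against NC along with Adgre1 and Cd5l. Whole liver RNA does not tell which of these cells hold them. Of 12 pan-leukocyte and macrophage markers 11 were tested, and 9 rose and 0 fell, with a median of 0.88. Lyz2, lysozyme of myeloid cells, rose by 1.05 (SE 0.16, adjusted p = 0.000718), Fcgr1, the high-affinity IgG receptor, by 1.27 (SE 0.21, adjusted p = 0.00116) and Laptm5 by 0.97 (SE 0.18, adjusted p = 0.00252). The summed FPKM of the 12 ran from 82.0 to 147 among NC mice, from 112 to 194 among SZ-A mice and from 174 to 241 among HFD mice, so that the HFD mice lay above all NC mice. Lyz2, with means of 56.3 FPKM in NC and 114 in HFD mice, made up much of this sum. Lyz2 was itself higher without overlap, as were 5.48% of tested genes, so the sum is not a separate result. Of 12 markers of lipid-associated macrophages, which gather in steatotic liver, 9 were tested and 6 rose, with a median of 1.35. Among the 6 were Capg (1.63, adjusted p = 4.10e-05), Lgals3 (1.77, 0.000210) and Mmp12 (3.38, 0.000218). The NC mean of Mmp12 was 0.118 FPKM, near the 0.1 added before taking logs. The size of its change therefore depends on that added value. Mmp12 passed the filter of 1 FPKM through its HFD mean of 2.46, since its SZ-A mean was 0.557. The summed FPKM of the 12 markers ran from 27.5 to 57.2 among NC mice. It ran from 36.1 to 59.7 among SZ-A mice and from 51.9 to 116 among HFD mice. The part of such cells in the changes of Adgre1 and Cd5l was not tested.

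Of 10 monocyte markers 1 was above a mean of 1 FPKM, Plac8, which rose with HFD (0.90, SE 0.15, adjusted p = 0.00139). NC mice had a monocyte sum of 2.85 to 4.76 FPKM, SZ-A mice of 3.92 to 9.79 and HFD mice of 6.75 to 15.8, and none of the 10 was at 0 in all mice of a group. Of 8 neutrophil markers 3 were tested and 2 rose, S100a9 by 2.29 (SE 0.53, adjusted p = 0.00870) and S100a8 by 2.25 (SE 0.38, adjusted p = 0.00130), while Ly6g was listed at 0 in all NC and all SZ-A mice. The neutrophil sums were 1.53 to 6.92 (NC), 6.08 to 20.9 (HFD) and 4.84 to 18.6 (SZ-A). Peritoneal macrophage markers were counted because they share Timd4 and Adgre1 with Kupffer cells. Of the 6, 4 were tested and Prg4 rose (1.78, SE 0.30, adjusted p = 0.00131), while Gata6, their defining factor, stood at 0.02 (adjusted p = 0.967). Cxcl13 stood at -1.31 (adjusted p = 0.157) and Icam2 at 0.25 (0.219), and the median of the 4 was 0.13. All HFD mice lay above all NC mice in the monocyte sum, whereas the neutrophil sums overlapped. Plac8, with means of 2.68 FPKM in NC and 5.03 in HFD mice, made up much of the monocyte sum. It was itself higher without overlap, as were 5.48% of tested genes, so the sum is not a separate result. The part of these cells in the members' levels was not tested.

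Between SZ-A and HFD mice 1 gene of these leukocyte lists was called (Cd68 and Capg in voom), Cd68, a lysosomal glycoprotein of macrophages, which fell by 0.64 on the log2 scale (SE 0.11, adjusted p = 0.0451) with its groups not overlapping, where 0.489% of tested genes were lower without overlap. Cd68 was called in 11 of 23 alternatives and lost without any 1 of HFD1 to HFD4, SZ-A1 or SZ-A4 to SZ-A6 (adjusted p up to 0.130 over the 23). At an unadjusted p under 0.05 in limma, 7 of 11 pan-leukocyte and 6 of 9 lipid-associated macrophage genes were lower. None of the tested monocyte, neutrophil or peritoneal macrophage genes reached that limit. With the 1.2-fold limit added, 4.59% of all tested genes were lower and 4.43% higher. The median log2 fold change was -0.53 over the pan-leukocyte list, -0.64 over the lipid-associated macrophage list, -0.39 for Plac8, -0.56 over the 3 neutrophil genes and 0.01 over the peritoneal macrophage genes. Laptm5 stood at -0.54 (adjusted p = 0.0693), Lyz2 at -0.68 (0.0865) and Cybb, the NADPH oxidase subunit, at -0.55 (0.0880). S100a8, Retnlg and S100a9 stood at -0.56, -0.63 and -0.50 (adjusted p = 0.513, 0.534 and 0.612), and Plac8 had an adjusted p of 0.368. Prg4, Cxcl13 and Gata6 stood at -0.45, 0.39 and 0.02 (adjusted p = 0.517, 0.831 and 0.975). Between SZ-A and NC mice, 2 pan-leukocyte genes (Tyrobp and Fcgr1), 2 neutrophil genes (S100a8 and S100a9), 1 lipid-associated (Cd68) and 1 peritoneal macrophage gene (Prg4) were called higher, and 0 of these lists lower. Leaving out some single mouse ended the calls of Tyrobp, Fcgr1, S100a9 and Cd68, and left those of S100a8 and Prg4 in all 12 fits.

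Among cells that share the sinusoid, 1 of 10 sinusoidal endothelial markers rose with HFD, Lyve1 (0.91, SE 0.28, adjusted p = 0.0364), with a median of 0.15, and voom also called Pecam1. This count is near the 10.7% of all tested genes that were called higher. Lyve1 was called in 12 of 23 alternatives and lost without any 1 of NC1, NC2, NC3, NC5, NC6, HFD1, HFD2, HFD4 or HFD6 (adjusted p up to 0.107 over the 23). Stellate cell markers rose in 6 of 10 with a median of 0.51, among them Col1a1 (2.53, adjusted p = 0.000665), Rgs5 (0.51, 0.00341) and Pdgfrb (0.88, 0.00877). Hepatocyte markers fell in 5 of 10 with a median of -0.69, among them Cps1 (-1.40, adjusted p = 0.000152), Cyp3a11 (-1.74, 0.000242) and Ass1 (-1.08, 0.000282). Alb, albumin, stood at -0.47 (adjusted p = 0.0558) and was called in voom. Between SZ-A and HFD mice 0 markers of these 3 lists were called in limma, with 2, 3 and 4 at an unadjusted p under 0.05 and 1 hepatocyte marker, Apoa1, called in voom, and the medians were -0.04, -0.23 and 0.17. Lyve1 stood at -0.96 (adjusted p = 0.156), Cdh5 at -0.25 (0.305) and Dnase1l3 at 0.19 (0.416) of the endothelial list. Col1a1 stood at -1.79 (adjusted p = 0.1004), Pdgfrb at -0.65 (0.228) and Lrat at -0.46 (0.307) of the stellate list. Apoa1 stood at 0.78 (adjusted p = 0.0557), Serpina1c at 0.49 (0.144) and Cps1 at 0.31 (0.267) of the hepatocyte list. Between SZ-A and NC mice 1 stellate marker, Rgs5, was called higher and 3 hepatocyte markers, Cps1, Cyp3a11 and Ass1, lower, and voom added Colec11 and Serpina1c. Of all tested genes 5.31% were called higher and 4.3% lower in that comparison. The call of Rgs5 stood in 3 of the 12 fits with a mouse left out, and those of the 3 hepatocyte markers in all 12. The library size behind the FPKM was not the whole library in every mouse. For NC5 it was 16194168, below the 17366205 fragments counted on its genes. The median ratio of that size to the fragments on genes was 0.98 (NC), 1.11 (HFD) and 1.01 (SZ-A). Summed hepatocyte FPKM ran from 40277 to 60503 among NC mice, from 32288 to 55737 among SZ-A mice and from 25432 to 43934 among HFD mice, and its part in the members' levels was not tested.

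**Figure D4:**
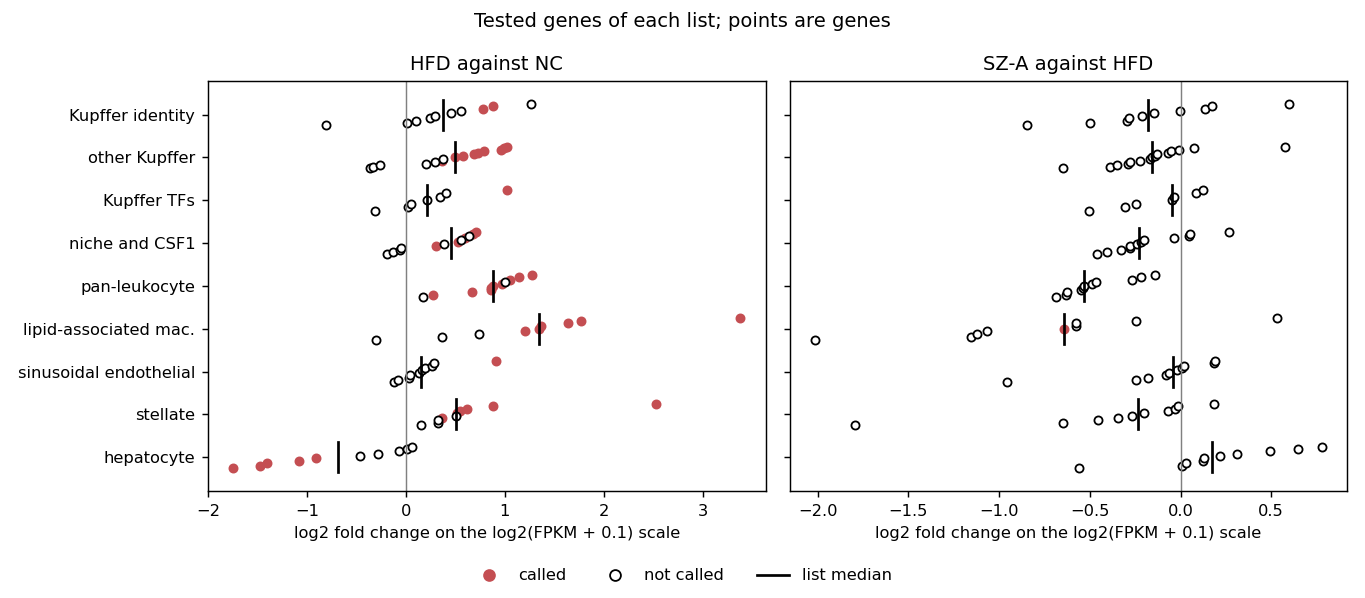
Log2 fold changes of the tested genes of the Kupffer cell identity list and 8 further lists, HFD against NC on the left and SZ-A against HFD on the right; points are genes, filled where called, and the vertical bars are list medians. In HFD against NC the medians run from -0.69 (hepatocyte) to 1.35 (lipid-associated macrophage) with the Kupffer cell identity genes at 0.38, and on the right 1 gene, Cd68, is filled.

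Levels of the members varied less between SZ-A mice than between HFD mice. The coefficient of variation (SD over mean) was lower in SZ-A than in HFD for 10 of 10 members, where it was lower for 50.4% of all tested genes, and its median over the members was 16.2% for SZ-A, 33.0% for HFD and 29.2% for NC mice. Over all tested genes the medians were 13.4%, 13.2% and 15.9% in that order. Csf1r had the lowest value of the members, 2.73% in SZ-A mice. Against NC, the coefficient was lower in SZ-A for 7 of 10 members and for 60.7% of all genes. The difference in spread was not tested, and the members share mice and are not independent of each other.

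The same mice tended to be high or low for many members. NC5 was the lowest NC mouse for 7 of 10 members and NC6 the highest for 6. HFD1 was the lowest HFD mouse for 6 members and HFD6 for 3, while HFD5 was the highest for 8. SZ-A2 was the lowest SZ-A mouse for 6 members and SZ-A5 the highest for 5.

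**Figure D5:**
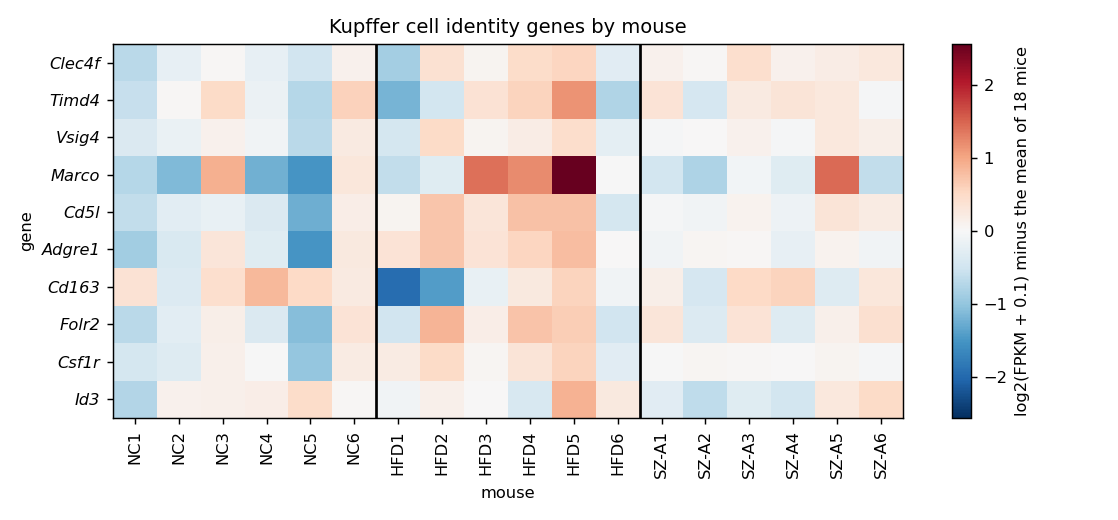
Heat map of log2(FPKM + 0.1) of each member (rows) in each of the 18 mice (columns, grouped as NC, HFD and SZ-A), after subtracting the mean of the gene over all mice. HFD5 is red for most members and NC5 blue, the HFD columns differ from each other more than the SZ-A columns, and Cd163 and Id3 depart from the pattern of the other members.

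With each group's mean removed, pairs of members were compared over the 18 mice by Pearson's r of log2(FPKM + 0.1). The genes of a mouse share its library and denominator, and the values are descriptions. Adgre1 and Csf1r were the most alike (r = 0.947). Clec4f, Vsig4, Cd5l and Folr2, whose promoters are printed above, had r between 0.727 and 0.900 with each other. Timd4 and Marco had r = 0.832. Cd163 had r between -0.042 and 0.596 with the other members, and Id3 between 0.025 and 0.308.

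The genes most like each member in the whole table of tested genes included other members. Clec4f was most like Vsig4 (r = 0.867), Folr2 (0.860) and Cfp (0.832), Vsig4 was most like Folr2 (0.900), Mrc1 (0.896) and Cd5l (0.895), and Folr2 was most like Vsig4 (0.900), Cd5l (0.895) and Ptgs1 (0.868). For Cd5l they were Sdc3 (0.920), Folr2 and Vsig4 (0.895 each), for Adgre1 Csf1r (0.947), Sdc3 (0.934) and Fyb (0.923), and for Csf1r Adgre1 (0.947), Sdc3 (0.920) and Adgre5 (0.915). Timd4 was most like Ganab (0.834), Marco (0.832) and Cfp (0.828), and Marco was most like Gimap4 (0.846), Elavl1 (0.844) and Timd4 (0.832). For Cd163 and Id3 no member was among the 3: Cd163 had Bpnt1 (0.872), Lman1 (0.847) and Gja4 (0.805), and Id3 had Timm9 (0.885), Erp29 (0.858) and Arfip2 (0.849). Of these genes, Sdc3, the proteoglycan syndecan-3, rose in HFD against NC (0.86, adjusted p = 0.0322, called in 6 of the 12 fits with a mouse left out), and Mrc1, the mannose receptor, stood at -0.13 (adjusted p = 0.488).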

How the data were processed

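Groups and replicate numbers came from the sample titles. Per the labels and the methods, the authors sequenced poly-A RNA as paired-end reads, aligned them to mm10/GRCm38 with HISAT2 2.0.5 (featureCounts 1.5.0-p3 is also named in the submitters' processing notes) and deposited FPKM per gene. FPKM times gene length gave whole fragments for 100% of values within a tolerance of 0.05, with the library size behind the FPKM at 0.9325 to 1.1414 times the fragments on genes; counting error is part of the spread between mice. The authors tested with DESeq2; the FPKM were tested here with limma 3.58.1 in R 4.3.3 (lmFit, eBayes with trend) on log2(FPKM + 0.1), a scale that understates the change of low genes. The 10216 genes averaging 1 FPKM or more were fitted on the 2 groups of each comparison, and p-values were Benjamini-Hochberg adjusted over all of them. Ratios were tested by exact permutation over mice. Named genes are the members, up to 3 per list and comparison, Alb and the 3 most alike genes per member. The code was tested on simulated data. Members, lists and ratio pairs were chosen with earlier results of these data known. Labels do not say that mice were housed apart, so p-values measure the spread between these mice. No 2 libraries of a group were duplicates. Same-numbered mice did not deviate together (correlations -0.117 to 0.292), so replicate numbers were not taken as pairs. Protein sequences were not used here.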

Additional observations from a re-analysis of the deposited data

Results flagged for a closer look

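In 4 of 36 sets of 6 mice (10 members and 2 ratios in 3 groups), the highest or lowest mouse stood apart from the next by a share of its group's range above Dixon's 95% limit for 6 samples. Chance flags about 1 in 20 such sets. Id3 in NC1 was 14.1 FPKM where the other NC mice ran from 24.3 to 32.9 (gap 0.645 of the range on the log2 scale). Marco in SZ-A5 was 19.5 FPKM where the other SZ-A mice ran from 4.06 to 6.68 (0.684). The log2 ratio of Clec4f to Adgre1 in NC5 was 3.70, against 2.42 to 2.87 in the other NC mice (0.648). The same ratio in HFD1 was 1.48, against 2.37 to 2.59 in the other HFD mice (0.799).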

How the results depend on the processing

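The number of members called in HFD against NC (2) was 0 without the filter on low genes, 0 with the replicate block, 0 at a fold change over 2, 4 at an unadjusted p under 0.05 and 0 to 2 with each mouse left out. It was 0 without NC1, NC2, NC4, HFD2, HFD3, HFD4 or HFD5, and 1 without NC3, NC5 or HFD1. In SZ-A against HFD (0) it was 1, Adgre1, with FPKM rescaled to a common sum, with sample weights and at an unadjusted p, and 0 to 1 with each mouse left out. In SZ-A against NC (0) it was 1, Clec4f, at a mean FPKM of at least 5, with median-ratio scaling, sample weights, voom on whole fragments or the replicate block, 2 at an unadjusted p and 0 to 2 with each mouse left out. The common-sum rescaling moved the median of all genes from 0.03 to -0.15 in SZ-A against HFD.

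The log2 ratio of Clec4f to Adgre1 lost its call in HFD against NC with a pseudocount of 1 (-0.48, adjusted p = 0.0519) and was -0.67 to -0.42 with each mouse left out (exact permutation tests); with the replicate block it was -0.58 in HFD against NC and 0.64 in SZ-A against HFD, both uncalled (exact sign-flip p = 0.03125, the smallest that 6 pairs can give, adjusted p = 0.0938 each). In SZ-A against NC it was -0.0374 to 0.22 with each mouse left out. Timd4 to Clec4f in SZ-A against HFD was -0.0363 with a pseudocount of 1 and -0.11 to 0.18 with each mouse left out.

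Signs that turned were all of estimates that were not called. Timd4 in HFD against NC was -0.27 with sample weights, -0.015 with voom and -0.23 to 0.24 with each mouse left out, and Id3 -0.053 to 0.21. In SZ-A against HFD, Clec4f was -0.0413 with the common sum and -0.0467 to 0.2348 with mice left out, Timd4 -0.0527 to 0.42, Vsig4 -0.11 to 0.0772, Cxcl13 -0.0887 to 0.83, and Gata6 -0.15 with the common sum, -0.0523 with sample weights, -0.0046 with voom and -0.10 to 0.21 with mice left out. The causes were not tested.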
